A study of Mus musculus with 7 samples.

Results

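The 7 genes described here encode the pancreatic enzymes and cofactor that digest fat and starch: Pnlip, Pnliprp1, Pnliprp2, Cel, Clps, Amy1 and Amy2a5. They were chosen by name, by matching the Ensembl identifiers of the count table to their symbols, and not by their values. Earlier results of these data were known when the genes were chosen. All 7 were among the 27138 counted features, and all 7 had enough reads to be tested. The libraries held polyadenylated RNA from whole pancreas of mouse embryos at E15.5 of embryonic development, 3 from cKO embryos and 4 from WT embryos, each from its own animal. The cKO embryos carried mLINC00673fl/fl, both floxed copies of 2610035D17Rik (the counterpart in mice of the long non-coding RNA gene LINC00673), together with Pdx1Cre, which is driven by a promoter of the pancreatic epithelium. The WT embryos carried the same mLINC00673fl/fl alleles without Cre, so an effect of the deletion cannot be told apart from an effect of Cre. The comparison asked how the genes of the developing pancreas respond to the loss of this RNA.

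Acinar cells of the pancreas make the digestive enzymes and store them in zymogen granules. Pancreatic triglyceride lipase (Pnlip) splits dietary triglycerides and needs its cofactor colipase (Clps) to work in the presence of bile salts. Pnliprp1 is a close relative of Pnlip with little known lipase activity, Pnliprp2 splits triglycerides and galactolipids and acts in suckling animals, and Cel, carboxyl ester lipase, is activated by bile salts and splits a broad range of esters. Alpha-amylases cut starch, and in mice Amy1 is the copy used in salivary gland and liver whereas the Amy2 copies are pancreatic. In rodents the adult pancreatic lipase is known to come late, around weaning, whereas the related lipases appear earlier.

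The libraries held 14883918 to 17767373 counts, and levels are given as CPM, the read count of a gene relative to the TMM-scaled total of its library. The targeted gene 2610035D17Rik averaged 2.55 ± 0.726 CPM in cKO (SD, n = 3) and 8.65 ± 0.498 CPM in WT (SD, n = 4), and its groups did not overlap. Its log2 fold change of −1.76 (SE 0.215) did not pass in edgeR (adjusted p = 0.0902) and passed in DESeq2 (adjusted p = 1.2e-09), so the edgeR fit did not call a change of that size in a gene at this level. The pancreatic markers Pdx1 (48.9 to 81.4 CPM), Ptf1a (47.8 to 76.6), Ins2 (430 to 780), Gcg (465 to 622) and Sox9 (74.9 to 105) were present in every library. One cKO and one WT library stood apart in liver transcripts. The 15 listed liver genes summed to 2202, 589 and 562 CPM in cKO replicates 1 to 3 and to 459, 621, 501 and 1483 CPM in WT replicates 1 to 4, and serum albumin (Alb) had 689 CPM in cKO replicate 1 and 354 CPM in WT replicate 4 against 8.59 to 31.0 CPM elsewhere. The same 2 libraries were highest in the summed leukocyte and erythroid list, with 2613, 1329 and 1789 CPM in cKO replicates 1 to 3 and 973, 1785, 1196 and 2159 CPM in WT replicates 1 to 4. WT replicate 4 also carries the number 7 after its genotype in the header of the count table, where the other 6 libraries carry a 6, and no source used here gives the meaning of that number. In whole tissue, fewer acinar cells and less RNA per acinar cell cannot be told apart.

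The 250 bases before the RefSeq start of 3 of these genes are shown (build GRCm38.p6, 5′ to 3′), since Pnliprp1 and Pnlip lie near each other on chromosome 19 and were the most and the least abundant of the lipases, and Cel had, of the other 6 genes, the profile across libraries nearest to that of Pnliprp1. Capitals mark the letters CANNTG, an E-box as bound by the acinar regulator Ptf1a with its partner, and TTTCCC, the box bound by the Rbpj or Rbpjl subunit of the same complex, on either strand. The Pnliprp1 window is chr19:58728637-58728886 on the plus strand, the Pnlip window chr19:58670115-58670364 on the plus strand and the Cel window chr2:28563404-28563653 on the minus strand.
Pnliprp1: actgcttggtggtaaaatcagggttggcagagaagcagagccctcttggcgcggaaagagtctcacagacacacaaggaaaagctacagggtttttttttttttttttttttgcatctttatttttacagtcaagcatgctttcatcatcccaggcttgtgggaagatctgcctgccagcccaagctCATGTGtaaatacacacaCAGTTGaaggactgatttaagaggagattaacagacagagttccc
Pnlip: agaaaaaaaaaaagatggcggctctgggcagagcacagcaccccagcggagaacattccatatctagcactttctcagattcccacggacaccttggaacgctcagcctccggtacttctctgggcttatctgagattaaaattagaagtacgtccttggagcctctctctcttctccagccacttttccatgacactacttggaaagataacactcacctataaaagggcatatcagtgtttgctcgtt
Cel: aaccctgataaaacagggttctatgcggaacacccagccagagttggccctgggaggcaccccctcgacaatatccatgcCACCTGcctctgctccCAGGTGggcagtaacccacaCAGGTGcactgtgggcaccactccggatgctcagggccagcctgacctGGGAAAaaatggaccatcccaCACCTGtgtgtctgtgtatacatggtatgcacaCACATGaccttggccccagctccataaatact
The Cel window held 5 matches to CANNTG, 4 of them the form CACCTG, and 1 match to TTTCCC. The Pnliprp1 window held 2 matches to CANNTG and 0 to TTTCCC, and the Pnlip window held 0 of either. Only the exact letters TTTCCC were searched, so these counts do not cover other forms of the Rbpj or Rbpjl box, such as GTGGGAA. The printed Pnliprp1 window holds GTGGGAA, and the Pnlip window holds it on the other strand, as TTCCCAC, both in lower case. The counts therefore do not show which of these windows lack such a box. The Pnlip window also held 1 match to TATAAA, the core promoter letters, which began 30 bases before the start. Of 32851 RefSeq windows of the same length, 66.2% held CANNTG, 21.9% held TTTCCC, 14.2% held both, 17.2% held CACCTG and 12.4% held TATAAA. Of the 7 genes, 6 were in the RefSeq table, and Clps is named only. A match of letters is a description and not a measured binding site.

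Amylase has several copies in the mouse genome, side by side on chromosome 3, and the counts of 1 copy can hold reads of another. The coding sequences of Amy2a5, Amy2a2, Amy2a3 and Amy2a4 were identical over 1524 bases in the GRCm38 annotation, and Amy2a1, annotated over 735 coding bases, differed from them at 0 positions. Amy2b, listed as an unprocessed pseudogene in GENCODE M21, differed from Amy2a5 at 29 of 1523 aligned bases, and Amy1 at 154 of 1524. A stretch of 120 coding bases (bases 343 to 462 of Amy2a5, minus strand of chromosome 3) shows this, chosen as the window with the most differences. Capitals mark, in Amy2a5, the positions where any of the 4 copies differs, and in the other copies, the bases that differ from Amy2a5.
Amy2a5: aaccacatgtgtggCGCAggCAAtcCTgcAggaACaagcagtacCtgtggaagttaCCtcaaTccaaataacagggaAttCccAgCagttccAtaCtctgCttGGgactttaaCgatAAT
Amy2a3: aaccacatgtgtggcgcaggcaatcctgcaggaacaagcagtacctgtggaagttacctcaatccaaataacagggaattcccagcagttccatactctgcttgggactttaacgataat
Amy2b: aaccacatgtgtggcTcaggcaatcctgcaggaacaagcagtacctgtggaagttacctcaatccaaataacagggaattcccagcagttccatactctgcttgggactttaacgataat
Amy1: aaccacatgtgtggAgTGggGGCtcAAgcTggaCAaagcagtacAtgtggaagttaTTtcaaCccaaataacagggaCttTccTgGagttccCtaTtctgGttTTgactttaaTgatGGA
In this stretch Amy2a3 differed from Amy2a5 at 0 bases, Amy2b at 1 and Amy1 at 28. Of all stretches of 100 bases along the annotated transcript, 47.4% of those of Amy2a5 occurred in another amylase copy, 11.4% of those of Amy2b, 0% of those of Amy1 and 100% of those of Amy2a2, Amy2a3 and Amy2a4. The values of Amy2a5 are therefore uncertain, whereas Amy1 shares no such stretch, although its annotation overlaps that of Rnpc3 on the same strand. The 3 lipases were less alike, with 71.5% identical coding bases between Pnlip and Pnliprp1, 70.9% between Pnlip and Pnliprp2 and 69.1% between Pnliprp1 and Pnliprp2.

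Pnliprp1 was among the most abundant transcripts of the E15.5 pancreas, while its relative Pnlip, the main lipase of the adult organ, had 17 to 37 reads per library. Among all 27138 features Pnliprp1 (ENSMUSG00000042179) ranked 2 by mean CPM in WT, after the chymotrypsinogen gene Ctrb1, and Pnlip (ENSMUSG00000046008) ranked 14461. Pnliprp1 had 23475, 18982 and 15117 CPM in cKO replicates 1 to 3, and 15534, 14222, 14125 and 26305 CPM in WT replicates 1 to 4. The highest of the 7 was WT replicate 4 and the next was cKO replicate 1, so the groups overlapped. Pnliprp1 took 1.54% to 2.28% of all counts of a library in cKO and 1.42% to 2.501% in WT.

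Pnlip had 2.13, 1.24 and 1.27 CPM in cKO replicates 1 to 3, and 1.78, 1.55, 2.14 and 1.20 CPM in WT replicates 1 to 4. WT replicate 4, the library richest in Pnliprp1, had the lowest Pnlip value, from 17 reads, beside 21 reads in cKO replicate 2, the next lowest. Counting error in these 2 libraries amounts to an SD of 0.350 and 0.315 in log2, so their order is not resolved. These values rest on 80 reads over the cKO libraries and 113 over the WT libraries, which gives 1.54 CPM in cKO (exact Poisson 95% interval 1.22 to 1.92) and 1.69 CPM in WT (1.40 to 2.04). The intervals cover counting error only. Per kb of exon, Pnliprp1 was 10893- to 15072-fold above Pnlip in the cKO libraries and 6510- to 21621-fold above it in the WT libraries.

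**Figure D1:**
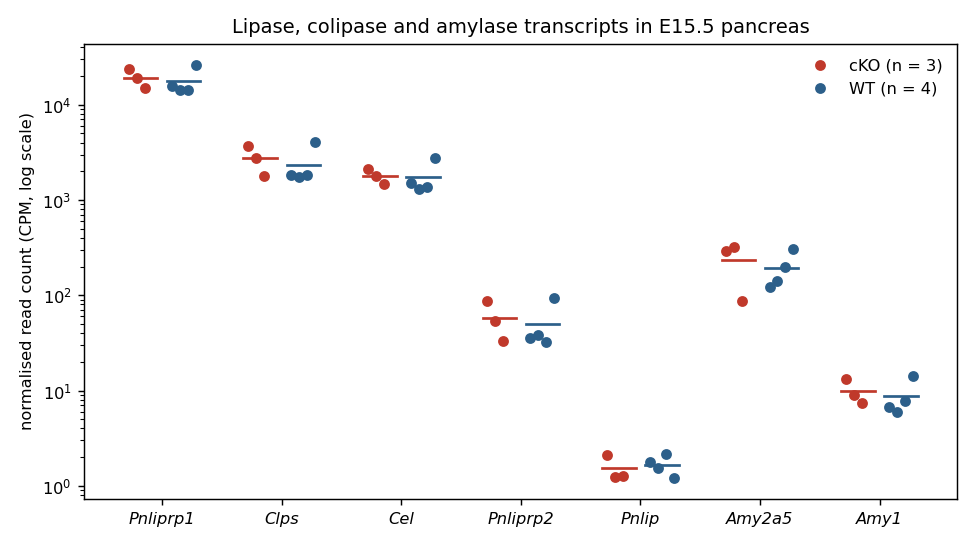
Normalised read count (CPM, log axis) of each gene in the 3 cKO libraries (red, left) and the 4 WT libraries (blue, right), with points for single libraries and lines for group means. Pnliprp1 lies between 14125 and 26305 CPM and Pnlip between 1.20 and 2.14 CPM, and the groups overlap for each of the 7 genes.

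Pnliprp2, the lipase of suckling animals, was expressed far below Pnliprp1 and ranked 4873 among all features by mean CPM in WT. It had 86.8, 54.2 and 33.5 CPM in cKO replicates 1 to 3, and 35.2, 38.0, 32.2 and 93.2 CPM in WT replicates 1 to 4. The same 2 libraries, WT replicate 4 and cKO replicate 1, were highest, as for Pnliprp1. Per kb, Pnliprp1 was 191- to 319-fold above Pnliprp2 in cKO libraries and 200- to 312-fold above it in WT libraries, so that of the 3 related lipases it made up 99.5% to 99.7% per length in both groups.

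Cel, the bile salt-activated lipase, and Clps, colipase, were both abundant, so the cofactor was abundant in the same libraries in which the lipase it serves was scarce. Cel had 2126, 1775 and 1480 CPM in cKO replicates 1 to 3, and 1495, 1293, 1359 and 2773 CPM in WT replicates 1 to 4. Clps had 3662, 2740 and 1801 CPM in cKO replicates 1 to 3, and 1817, 1750, 1820 and 4024 CPM in WT replicates 1 to 4. In both genes WT replicate 4 was highest and cKO replicate 1 next, and the other WT libraries lay close together. Clps ranked 17 and Cel 24 among all features by mean CPM in WT. An antisense gene, Gm13381, overlaps Cel in the annotation, and without strand its reads cannot be told apart from those of Cel.

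The pancreatic amylase Amy2a5 ranked 836 among all features by mean CPM in WT and Amy1 ranked 11070. The value of Amy2a5 is that of 1 copy only, and all 8 amylase features together averaged 1463 ± 689 CPM in cKO and 1657 ± 773 CPM in WT, beside 1794 ± 323 in cKO and 1730 ± 701 in WT for Cel. Amy2a5 had 289, 318 and 87.3 CPM in cKO replicates 1 to 3, and 122, 141, 196 and 306 CPM in WT replicates 1 to 4. The lowest of the 7 libraries was cKO replicate 3 and the highest cKO replicate 2, with all 4 WT libraries between them. With Amy2a1 to Amy2a5 summed, cKO replicate 3 was again lowest (425 CPM), but cKO replicate 2 (1089 CPM) was not highest. In that sum WT replicate 4 (1500 CPM) and cKO replicate 1 (1324 CPM) were highest. Amy1 had 13.4, 9.001 and 7.40 CPM in cKO replicates 1 to 3, and 6.70, 5.96, 7.70 and 14.3 CPM in WT replicates 1 to 4. Amy1 was highest in WT replicate 4 and cKO replicate 1, the libraries highest in liver genes, and the part of liver RNA in its level was not tested. Pnliprp1, Pnliprp2, Cel and Clps were highest in the same 2 libraries.

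Per kb of exon the 7 genes had the same order in all 7 libraries. The means per kb were 8633 ± 1882 CPM in cKO and 7893 ± 2643 CPM in WT for Pnliprp1 (SD, n = 3 and n = 4, as for the rest), and 4475 ± 1523 in cKO and 3851 ± 1824 in WT for Clps. Cel followed with 852 ± 154 in cKO and 822 ± 333 in WT, and Amy2a5 with 58.3 ± 31.7 in cKO and 48.1 ± 20.9 in WT. The value of Amy2a5 is that of 1 copy, so its place need not be that of all amylase copies together. Not divided by length, all 8 amylase features together averaged 1463 ± 689 CPM in cKO and 1657 ± 773 CPM in WT. On that scale Cel averaged 1794 ± 323 CPM in cKO and 1730 ± 701 CPM in WT. Pnliprp2 had 37.0 ± 17.1 CPM per kb in cKO and 31.6 ± 18.5 in WT. Amy1 had 2.88 ± 0.894 in cKO and 2.52 ± 1.12 in WT, and Pnlip had 0.705 ± 0.229 in cKO and 0.760 ± 0.180 in WT. Across libraries the range of Pnliprp1 overlapped that of Clps, and the range of Amy2a5 that of Pnliprp2, although Pnliprp1 and Amy2a5 were the higher of their pairs within 7 of 7 libraries. The other neighbours in the order had ranges that did not overlap. With the length of the longest coding transcript in place of all exons, the order of the means was the same in both groups.

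Between cKO and WT, 0 of the 7 genes passed the threshold of an adjusted p under 0.05 (quasi-likelihood fit in edgeR, Benjamini-Hochberg), and 0 passed in DESeq2. At an unadjusted p under 0.05 the count was also 0. Over all 16910 tested features the share called was 0.00591% with edgeR, and 1.38% had an unadjusted p under 0.05. DESeq2 called 0.0771% of the 16865 features to which it gave an adjusted p. The adjusted p was 0.9999 for each of the 7 genes. The groups overlapped for 7 of 7, whereas they did not overlap for 2.72% of the tested features.

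The 95% intervals of all 7 genes included 0. The log2 fold change of Pnliprp1 was 0.13 (SE 0.253, with a 95% interval of −0.46 to 0.71), or 1.09-fold with bounds of 0.729 and 1.64. Cel had 0.05 (SE 0.288, 95% interval −0.62 to 0.73), and Clps 0.22 (SE 0.382, −0.69 to 1.13). The interval of Pnliprp2 was wide, with 0.23 (SE 0.504, −0.999 to 1.46), as was that of Amy2a5, with 0.28 (SE 0.528, −1.01 to 1.57). Amy1 had 0.20 (SE 0.335, −0.57 to 0.96) and Pnlip −0.11 (SE 0.317, −0.83 to 0.60). For the 7 genes, exact two-sided permutation tests (35 divisions of the libraries) gave p between 0.514 and 0.857, where the smallest p this design allows is 0.0286.

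**Figure D2:**
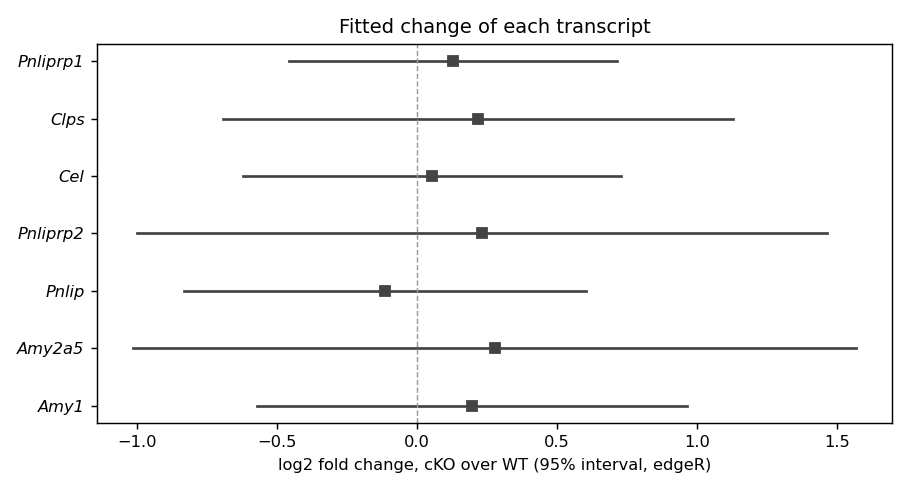
Fitted log2 fold change, cKO over WT, of each gene (squares) with its 95% interval from edgeR (lines). The 7 intervals all include 0, the narrowest being that of Pnliprp1 (−0.46 to 0.71) and the widest that of Amy2a5 (−1.01 to 1.57).

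By direction alone, 6 of the 7 genes were higher in the cKO fit, with a median log2 fold change of 0.20, beside 46.0% of all tested features higher and a median of −0.01. That direction turned without cKO replicate 1. Without cKO replicate 1, 1 of the 7 was higher and the median was −0.07. Without WT replicate 4, 6 were higher and the median was 0.54. It was 0.37 without cKO replicate 3, 0.13 without cKO replicate 2, and 0.09, 0.05 and 0.07 without WT replicates 1, 2 and 3. Without both cKO replicate 1 and WT replicate 4, the libraries highest in liver genes, 6 were higher and the median was 0.27, and with the liver list as a covariate 5 were higher and the median was 0.05.

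**Figure D3:**
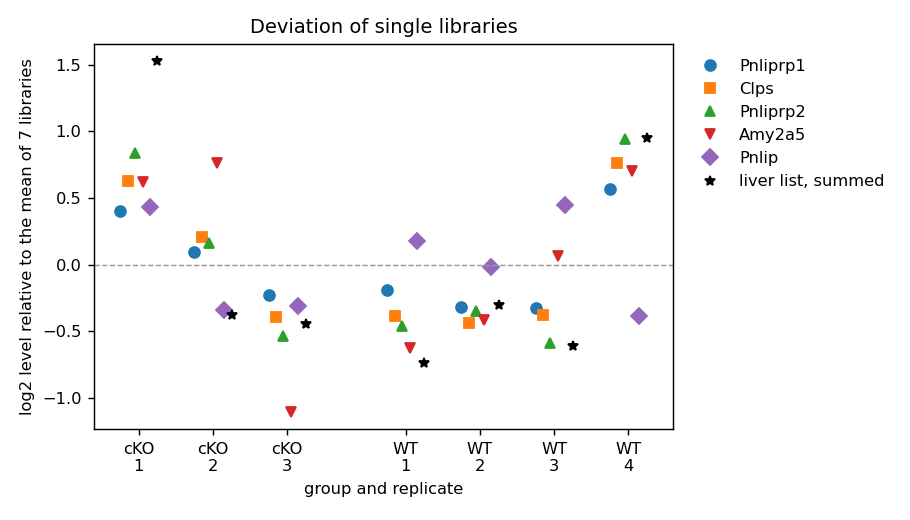
Level of Pnliprp1, Clps, Pnliprp2, Amy2a5, Pnlip and the summed liver list in each library, as the log2 difference from the gene's mean over the 7 libraries, with cKO libraries at left and WT libraries at right. Apart from Pnlip, the genes and the liver list lie above 0 in cKO replicate 1 and WT replicate 4. Amy2a5 is highest in cKO replicate 2. The lowest Pnlip value, in WT replicate 4, rests on 17 reads and lies within counting error of the next lowest.

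The genes also differed in how closely they followed each other from library to library. Likeness was measured as the root mean square difference of log2 CPM profiles over the 7 libraries, each centred on its own mean and computed with a prior count of 2, so that 0 is an identical profile. Pnliprp1 and Cel were closest (0.0694), followed by Clps and Amy1 (0.125) and Clps and Pnliprp2 (0.148). Amy2a5, measured as a single copy, lay 0.390 to 0.499 from the other fat- and starch-digesting genes apart from Pnlip. Pnlip lay 0.508 to 0.748 from the other 6. For Pnlip, counting error alone amounts to an SD of 0.237 to 0.350 in log2 per library, so its distances and nearest profiles also measure its low read count.

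Among 10697 other tested features with a mean of at least 10 CPM, the nearest to Pnliprp1 were Atg9b (0.0546), an autophagy gene, Creld2 (0.0568), an endoplasmic reticulum chaperone gene, and Cyp4v3 (0.0689). Nearest to Cel were Trbc2 (0.0900), C1qa (0.0923), a complement gene, and Spink1 (0.0972), the trypsin inhibitor of zymogen granules. Nearest to Clps were Lyz2 (0.0719), a lysozyme gene, Ctrb1 (0.0835) and Tdh (0.0999), and nearest to Amy1 were Reg1 (0.0862), a secreted acinar protein, Lyz2 (0.0972) and C1qa (0.101). Pnliprp2 had Gnmt (0.0769), Aqp8 (0.100), a water channel of acinar cells, and Slc39a5 (0.111), a zinc transporter. For Pnlip they were Gm49172 (0.0905), Gdpd1 (0.110) and Dlgap3 (0.114). Amy2a5 had no profile as near: the nearest was another amylase copy, Amy2a2 (0.283), and then Proc (0.307) and Aldh1l1 (0.335), both expressed in liver. Amy2a5 and Amy2a2 have identical coding sequences, so the same reads can match both, and the part of this in their likeness was not tested.

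To set these genes against another acinar gene within the same library, their levels, with 0.5 CPM added, were divided by those of Cpa1, carboxypeptidase A1, a gene of early acinar cells and of the tip progenitors before them. Such a ratio does not depend on the scaling of the library. Pnliprp1 to Cpa1 had log2 ratios of 2.05, 1.85 and 1.90 in cKO replicates 1 to 3, and 1.76, 1.52, 1.63 and 1.57 in WT replicates 1 to 4. Every cKO library was above every WT library, with means of 1.93 ± 0.103 in cKO (SD, n = 3) and 1.62 ± 0.105 in WT (SD, n = 4), a difference of 0.31 on the log2 scale or 1.24-fold. The exact two-sided permutation test gave p = 0.0571 (0.257 after Benjamini-Hochberg adjustment over the 9 ratios tested), above the threshold of 0.05.

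Cel to Cpa1 likewise did not overlap, with −1.42, −1.57 and −1.45 in cKO replicates 1 to 3, and −1.61, −1.94, −1.75 and −1.67 in WT replicates 1 to 4 (difference 0.27, exact permutation p = 0.0571). Clps to Cpa1 had means of −0.91 ± 0.270 in cKO and −1.33 ± 0.152 in WT, a difference of 0.41 (exact permutation p = 0.0857), and the groups overlapped. Amy2a5 to Cpa1 differed by 0.32 between the means, with an SD of 0.795 in cKO and 0.312 in WT (exact permutation p = 0.486). Cpa1 itself averaged 4991 ± 842 CPM in cKO and 5739 ± 2070 CPM in WT, which is −0.20 in log2 (95% interval −0.80 to 0.40).

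For Pnliprp1, Cel and Amy2a5 the direction changed with the denominator. Against Ptf1a, the transcription factor of acinar cells, Pnliprp1 had a mean log2 ratio of 8.21 ± 0.0395 in cKO and 8.25 ± 0.246 in WT, a difference of −0.04 (exact permutation p = 0.8286). The difference was −0.09 for Cel (p = 0.8286 in the exact permutation test), −0.04 for Amy2a5 (0.971) and 0.06 for Clps (0.8286). The groups overlapped in all 4. Ptf1a itself averaged 64.3 ± 12.4 CPM in cKO and 55.8 ± 9.52 CPM in WT. That is 0.20 in log2 (95% interval −0.16 to 0.57), opposite in sign to the change of Cpa1. The part of either denominator in the ratio differences was not tested.

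**Figure D4:**
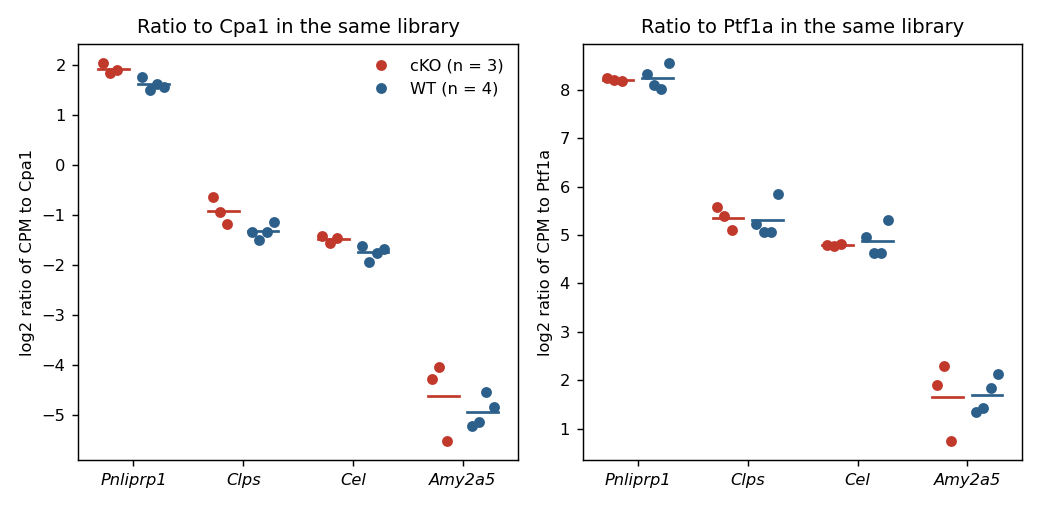
Log2 ratio of the CPM of Pnliprp1, Clps, Cel and Amy2a5 to Cpa1 (left) and to Ptf1a (right) in the same library, with 3 cKO libraries in red, 4 WT libraries in blue and lines for group means. Against Cpa1 the cKO points of Pnliprp1 and Cel lie above all WT points, and against Ptf1a the groups overlap for each of the 4 genes.

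Ratios within the set compared the adult lipase and the other genes with Pnliprp1. Pnlip to Pnliprp1 had log2 means of −13.20 ± 0.187 in cKO and −12.95 ± 0.668 in WT, a difference of −0.25 (exact permutation p = 0.600). Pnliprp2 to Pnliprp1 differed by 0.11 (p = 0.629 in the exact permutation test), Clps to Pnliprp1 by 0.10 (0.486) and Cel to Pnliprp1 by −0.05 (0.486). Cel to Pnliprp1 was the steadiest of the 9 ratios, between −3.46 and −3.25 over all 7 libraries. Amy2a5 to Amy1 differed by −0.06 (exact permutation p = 0.857), with an SD of 0.800 in cKO and 0.212 in WT. Of the 9 ratios tested, 0 passed the threshold before or after adjustment.

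Among the 6 other amylase features, 5 had a higher and 1, Amy2b, a lower level in the cKO fit, with 0 past the threshold. Amy2b had 760, 395 and 313 CPM in cKO replicates 1 to 3, and 789, 745, 705 and 1274 CPM in WT replicates 1 to 4. Only cKO replicate 1 lay within the range of the WT libraries. The log2 fold change was −0.84 (SE 0.359, 95% interval −1.70 to 0.01) and did not pass (edgeR adjusted p = 0.9999, unadjusted p = 0.0521).

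The other copies, Amy2a1 to Amy2a5 summed, averaged 946 ± 466 CPM in cKO and 759 ± 495 CPM in WT, which is 0.32 in log2 (95% interval −1.09 to 1.73). The sum of all 8 amylase features differed by −0.18 in log2 (95% interval −1.27 to 0.91). Neither sum passed (edgeR adjusted p = 0.9998 for all 8). Both sums were chosen after the values were seen, and like the shares of single copies they would change if reads matching several copies were left out or counted more than once.

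The share of Amy2b in all amylase counts was 35.7%, 26.2% and 41.5% in cKO replicates 1 to 3, and 58.6%, 58.9%, 58.6% and 45.3% in WT replicates 1 to 4. Every cKO library was below every WT library, and the lowest WT library was again WT replicate 4. As a log2 ratio to the other 7 features it averaged −0.95 ± 0.507 in cKO and 0.31 ± 0.389 in WT, a difference of −1.26 (exact permutation p = 0.0571), and it was selected after its values were seen. Single-copy values cannot be taken at face value here. Amy2a2, Amy2a3 and Amy2a4 each have a transcript of 3717 bases in the GRCm38 annotation. Their coding sequences are identical, and every stretch of 100 bases of each transcript occurs in another amylase copy. Yet they held 545, 10824 and 3878 counts in cKO replicate 1 and 270, 3730 and 2123 counts in WT replicate 1. How reads matching several copies were counted, and how many copies the animals carried, is given by no source used here.

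**Figure D5:**
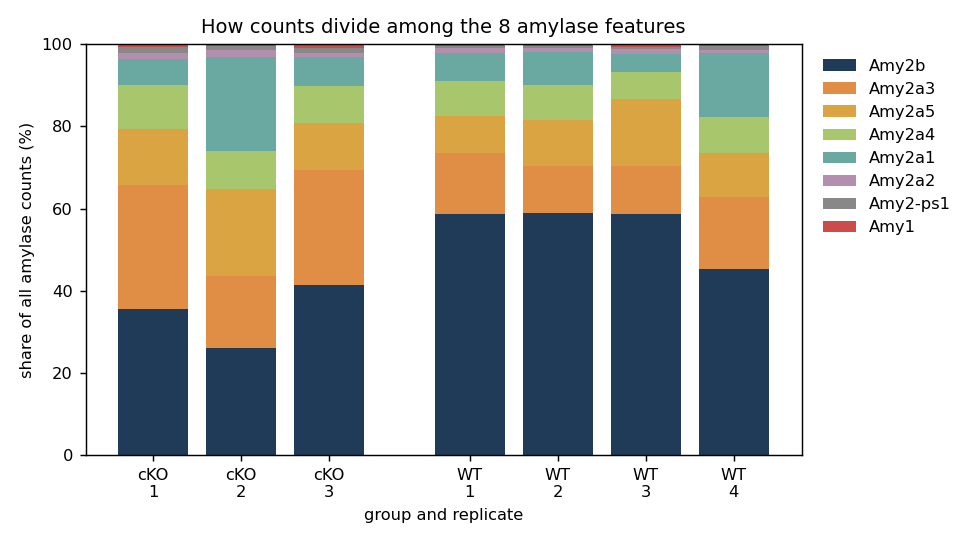
Share of all amylase counts, in percent, held by each of the 8 annotated amylase features in the 3 cKO libraries (left) and the 4 WT libraries (right), as stacked bars. Amy2b, at the bottom, holds 26.2% to 41.5% in cKO and 45.3% to 58.9% in WT, and Amy1, at the top, holds 0.471% to 0.982%.

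The wider acinar program gave the setting for these values. Of 17 tested zymogen and protease genes, 14 were higher and 3 lower in cKO (median change 0.10 in log2), and of 16 granule and other acinar secretory genes, 14 were higher (median 0.27), with 0 past the threshold in either list, beside 46.0% of all tested features higher. Of 10 acinar transcription factors 5 were higher (median −0.0038), and of 16 genes of the secretory machinery 12 were higher (median 0.08), again with 0 called. The zymogen list summed to 49663, 39268 and 27188 CPM in cKO replicates 1 to 3, and to 26798, 28561, 28247 and 58269 CPM in WT replicates 1 to 4, so that it was highest in the same 2 libraries as Pnliprp1, Pnliprp2, Cel and Clps. As with the 7 genes, the direction depended on cKO replicate 1: without it 2 of the 17 zymogen genes (median −0.24) and 7 of the 16 granule genes (median −0.06) were higher, beside 49.4% of all features. Without WT replicate 4, 17 of 17 and 16 of 16 were higher, and without both libraries 16 of 17 and 15 of 16. Ctrc, a chymotrypsin, was the 1 zymogen gene whose groups did not overlap, beside 2.72% of all tested features. It had 118, 116 and 64.1 CPM in cKO replicates 1 to 3, and 2.65, 53.1, 60.1 and 3.96 CPM in WT replicates 1 to 4. The WT libraries were split, the gap between the groups was that of 64.1 in cKO and 60.1 in WT, and the change did not pass (1.72 in log2, 95% interval −1.02 to 4.47, edgeR adjusted p = 0.9999). All 15 liver genes were higher in the fit (median 0.94) with 0 called, and without cKO replicate 1 the count was 2 of 15. Of the leukocyte and erythroid list 9 of 9 were higher (median 0.23), and of the endothelial list 0 of 6 (median −0.08), with 0 called in either. The part of these cell types in the acinar values was not tested. Of the salivary gland list, only Aqp5 was tested, at 0.477 to 1.55 CPM over the 7 libraries, and 8 of its 10 genes were not matched to a feature.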

How the data were processed

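RNA of 3 cKO and 4 WT pancreases was sequenced, and the deposited values are whole raw read counts for each gene, without normalisation. The submitters' processing notes name HISAT2, StringTie, featureCounts and the mouse build mm39, and no source used here says how reads matching several genes were counted. The kit does not mark strand. Symbols, exonic lengths and transcripts came from GENCODE M21 on GRCm38 and promoters from RefSeq on GRCm38.p6, another build than that of the counts, so coordinates are those of GRCm38. Of the 27138 features, 315 had no Ensembl identifier and held 0.206% of the counts, and 0 columns were left unused.

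Counts were fitted with edgeR 4.0.16 in R 4.3.3 (filterByExpr, TMM scaling, robust quasi-likelihood test, Benjamini-Hochberg adjustment over 16910 features, threshold 0.05), with all 7 libraries and genotype as the only term. The code was tested on simulated data. TMM factors were 0.952 to 1.04. Libraries differed from each other by more than sampling noise (chi-square over its degrees of freedom, 11.1 to 50.8), and each was counted as 1 animal. DESeq2 1.42.0, other scalings and filters, a replicate block, a liver covariate and left-out libraries were alternatives. Single values and ratios were compared by two-sided exact permutation tests. Ratios were taken on the log2(CPM + 0.5) scale, which understates changes of low genes such as Pnlip.

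The genes and lists were chosen with earlier results of these data known. Named genes are the 7 genes, the amylase copies, Cpa1 and Ptf1a as denominators, up to 2 genes with the smallest p in a list, the 3 nearest profiles per gene among features with a mean of at least 10 CPM, and 2610035D17Rik and Alb as checks. Intervals on reads cover counting error only.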

Additional observations from a re-analysis of the deposited data

Results flagged for a closer look

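Among 25 sets of 4 WT values examined for a library far from the others, 9 had one, and in all 9 it was WT replicate 4. Chance alone marks about 1 in 20 such sets, and the 9 come from the same library and so are not independent. For the fat-digesting genes, WT replicate 4 had 26305 CPM of Pnliprp1, against 14125 to 15534 in the other 3 WT libraries, and 4024 CPM of Clps, against 1750 to 1820. It had 2773 CPM of Cel, against 1293 to 1495, and 93.2 CPM of Pnliprp2, against 32.2 to 38.0.

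Among the amylase features it had 1274 CPM of Amy2b, against 705 to 789 in the other WT libraries, and 489 CPM of Amy2a3, against 143 to 202. It had 439 CPM of Amy2a1, against 50.3 to 102, and 25.1 CPM of the pseudogene Amy2-ps1, against 6.74 to 7.51. The log2 ratio of Amy2b to the other amylase features was −0.27 in WT replicate 4, against 0.50 to 0.52. The same library had 1483 CPM of liver genes in sum, and the part of this in the values above was not tested.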

How the results depend on the processing

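The count of the 7 genes called was 0 in the fit and in all 16 alternatives, and their lowest adjusted p in any was 0.972 (edgeR). Over all features, 1 was called, against 13 with DESeq2, 4 with no filter, 0 when library totals or DESeq2 size factors replaced TMM, 0 with at least 1 CPM required, 0 without robust estimation and 0 to 3 with 1 library left out; the cause was not tested. With the replicate number as a block, 13 features were called and 0 of the 7 genes. Same-numbered libraries correlated by 0.284, 0.419 and 0.0597. Replicates 1 and 2 of cKO correlated best with the WT library of their own number, and cKO replicate 3 with WT replicate 2 (0.296). No source used here says whether same-numbered libraries share a litter or day, and these correlations cannot decide it. For ratios, the block compared same-numbered libraries and so left out WT replicate 4. The difference between cKO and WT in the log2 ratio of all amylase to Cpa1 was then 0.00838, against −0.05 in all 7 libraries. Leaving out WT replicate 4 without the block gave the same 0.00838.

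Of 112 alternative fold changes of the 7 genes, 13 had the other sign. With the liver covariate Cel had −0.0307 and Amy2a4 −0.12. With 1 library left out, log2 fold changes ran from −0.0341 to 0.38 for Pnliprp1, −0.0435 to 0.60 for Clps, −0.0801 to 0.37 for Cel, −0.17 to 0.72 for Pnliprp2, −0.41 to 0.0271 for Pnlip, −0.0318 to 0.67 for Amy2a5 and −0.0685 to 0.54 for Amy1. For the other copies they ran from −0.88 to 1.12 for Amy2a1, 0.0684 to 0.85 for Amy2a2 and −0.0381 to 1.17 for Amy2a3. The range was −0.40 to 0.52 for Amy2a4, −0.0398 to 1.32 for Amy2-ps1 and −1.30 to −0.61 for Amy2b.

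With Ptf1a in place of Cpa1 the ratio difference was −0.0400 for Pnliprp1, −0.0870 for Cel and −0.0358 for Amy2a5. With 1 library left out it was 0.26 to 0.36 for Pnliprp1 to Cpa1, 0.20 to 0.31 for Cel to Cpa1, 0.27 to 0.54 for Clps to Cpa1, 0.0296 to 0.77 for Amy2a5 to Cpa1, −0.57 to −0.0620 for Pnlip to Pnliprp1, 0.0148 to 0.21 for Clps to Pnliprp1, −0.0786 to −0.00728 for Cel to Pnliprp1, −0.0719 to 0.29 for Pnliprp2 to Pnliprp1, −0.44 to 0.36 for Amy2a5 to Amy1 and −0.28 to 0.22 for all amylase to Cpa1. Cel to Pnliprp1 was 0.0193 without both libraries highest in liver genes. With 6 libraries the exact test of a ratio cannot go below 0.0667. Pnlip had 17 to 37 reads per library, which limits the precision of its values.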

Other observations

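Lipases of other kinds were present beside the pancreatic ones, and 0 of the 12 tested genes of the list passed (8 higher, 4 lower, median log2 fold change 0.06). The 2 with the smallest p were Liph, a phosphatidic acid phospholipase, with 17.6 ± 2.60 CPM in cKO and 15.0 ± 4.33 CPM in WT, and Lipa, the lysosomal acid lipase, with 38.1 ± 1.57 CPM in cKO and 40.3 ± 3.36 CPM in WT (SD, n = 3 and n = 4). Pla2g1b, the pancreatic phospholipase A2, is named after its values were seen. It had 0.709, 0.711 and 0.718 CPM in cKO replicates 1 to 3, and 0.486, 0.656, 0.869 and 0.636 CPM in WT replicates 1 to 4. These values were below the CPM of Pnlip in each library and rest on 9 to 15 reads each. Per kb of exon the order of the means was the other way. Pla2g1b had 1.00 CPM per kb in cKO and 0.928 in WT, and Pnlip had 0.705 in cKO and 0.760 in WT.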
